A study of Mus musculus with 10 samples.

Results

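Genes of cholesterol synthesis, uptake and efflux were followed in whole testes of 10 day old SCARKO and control mice. The members were 29 named genes, chosen for their place in the pathway with earlier results of these data known. A single-gene probe set was found for 26 of them. Acat2, Insig1 and Soat1 had none and were not analysed here. The 26 genes were read by 50 probe sets out of 22626, array controls not counted. Of these, 44 were bright enough to be tested, and each gene kept at least 1. They are 26 of the 7973 genes tested in all.

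SCARKO mice lack the androgen receptor selectively in Sertoli cells, which line the seminiferous tubule and support germ cell development. Control animals are labelled AMHCre, a transgene in which the promoter of the anti-Müllerian hormone gene drives the recombinase in Sertoli cells. Each group had 5 pools. A pool held RNA of 1 testis from each of 3 littermates, and SCARKO and control pools were made as 5 numbered littermate pairs, so replicate error here is that between pools of mice, not single mice. RNA was taken from snap-frozen whole testes. It was amplified and hybridised to 1 Affymetrix array per pool, and a value is the deposited signal of a probe set in arbitrary linear units.

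Cells make cholesterol from acetyl-CoA. Enzymes of the mevalonate steps build isoprenoid units, which give farnesyl diphosphate and then squalene. A chain of sterol enzymes turns lanosterol into cholesterol. SREBP transcription factors switch these enzymes on. SCAP carries SREBP from the endoplasmic reticulum to the Golgi when sterols are scarce, and INSIG proteins hold SCAP back when sterols are plentiful. In the testis, cholesterol is the raw material of androgens in Leydig cells, and Sertoli and germ cells need it for membranes. Sterol precursors of cholesterol are also known to accumulate in the testis.

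The arrays shared a trimmed mean signal of 100, and the array medians lay between 36.4 and 37.6. In pairs 1 to 4, the title of an array and its description disagree on genotype, while in pair 5 they match. Groups follow the titles here. Rhox5, a marker of androgen action in Sertoli cells, had a signal of 9.48 ± 1.91 in SCARKO pools and 178.2 ± 61.7 in control pools (SD, n = 5 each), and it was lower in SCARKO in all 5 pairs, pair 5 included (limma adjusted p = 6.1e-06). With groups from the descriptions, no difference passed adjustment in limma (0 of 13576 probe sets and 0 of the 26 genes, although 611 probe sets and 2 of the genes had an unadjusted p under 0.05). Every direction below rests on the titles.

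Of the 26 cholesterol genes, 4 differed between SCARKO and control testes, and each change was under 1.5-fold in size. Ebp, which encodes a sterol isomerase late in the pathway, fell. Insig2, which encodes a retention protein of the SCAP and SREBP complex, also fell. Idi1 and Fdps, which encode neighbouring enzymes at the end of the isoprenoid steps, rose. The 4 calls are 15.4% of the 26 genes, beside 5.69% of all genes and 5.19% of all probe sets tested (limma, pair as a block, Benjamini-Hochberg over 13576 probe sets, called at an adjusted p under 0.05). By direction, 2 of 26 were lower, against 3.52% of all genes, and 2 of 26 were higher, against 2.17% of all genes. The median log2 fold change of the 26 genes was 0.063, beside 0.015 over all genes, with members on both sides of 0 (-0.38 to 0.34). Without the filter on dim probe sets, none of the 4 passed (0 of 26 in limma, with 9 at an unadjusted p under 0.05). Whole testis was measured, so fewer cells of a type and less RNA per cell cannot be told apart.

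**Figure D1:**
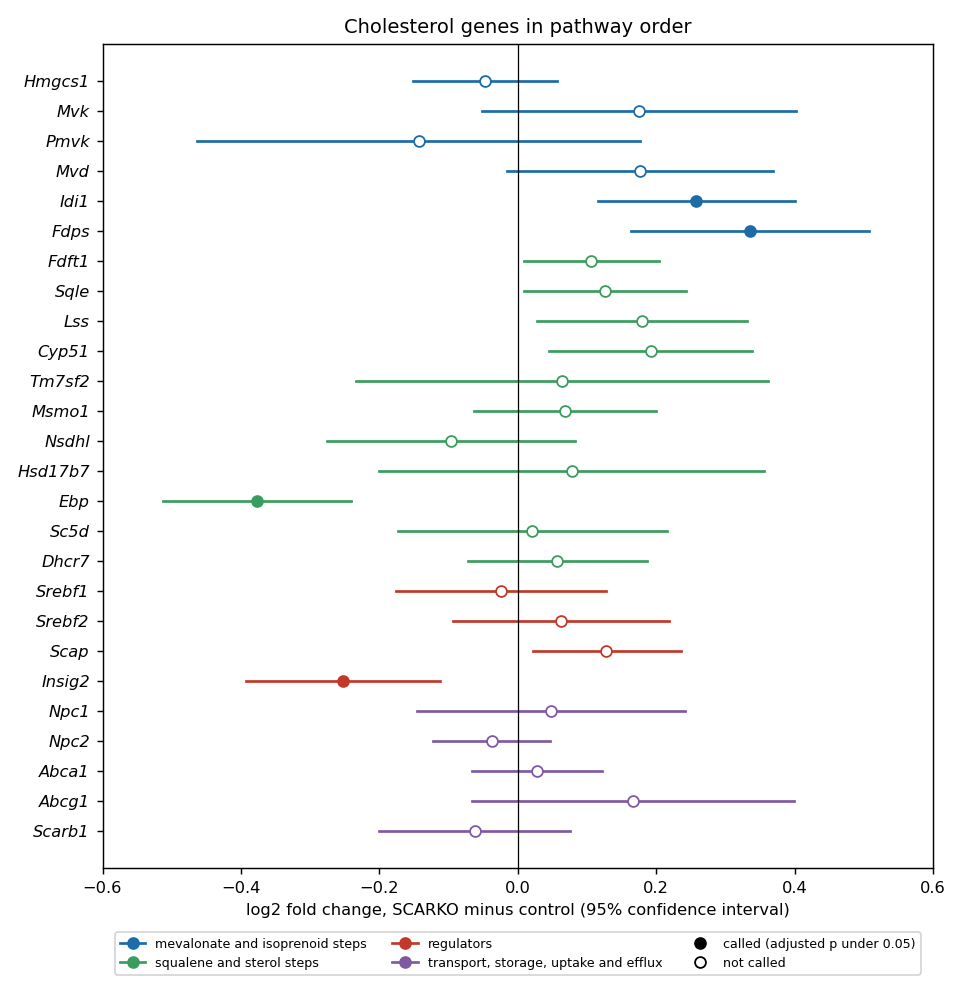
Log2 fold change of each of the 26 measured genes, SCARKO minus control, in pathway order. Horizontal lines are 95% confidence intervals, and filled points were called. Ebp and Insig2 lie left of 0, Idi1 and Fdps lie right of it, and the intervals of the 5 transport and efflux genes all include 0.

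Ebp, on the X chromosome, was the member with the smallest p. Its signal was 122.0, 126.3, 124.0, 139.8 and 128.1 in SCARKO pools 1 to 5, against 169.0, 151.3, 174.2, 163.3 and 173.9 in control pools 1 to 5. Every SCARKO pool was below every control pool. The means were 128 ± 6.97 in SCARKO and 166.3 ± 9.51 in control (SD, n = 5 each). The log2 fold change was -0.38 (SE 0.062, limma adjusted p = 0.0059), a 1.3-fold lower signal. Groups that did not overlap in this direction made up 2.78% of all genes, and 5.26% did not overlap in either direction. Leaving out any 1 pair kept the call, with log2 fold changes between -0.42 and -0.35 and adjusted p between 0.0069 and 0.034. Without the filter on dim probe sets the adjusted p was 0.073.

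Insig2 was read by 3 probe sets, and 2 of them were lower in SCARKO. The brightest had signals of 127.1, 162.5, 149.4, 144.7 and 132.0 in SCARKO pools 1 to 5, against 157.8, 170.0, 166.0, 181.6 and 174.9 in control pools. The SCARKO pool of pair 2 lay above the control pool of pair 1, so the groups overlapped, while each SCARKO pool was below its own littermate control. The log2 fold change was -0.25 (SE 0.063, limma adjusted p = 0.044, lower in 5 of 5 pairs).

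A dimmer probe set of Insig2 had signals of 78.0, 97.8, 86.6, 83.4 and 77.7 in SCARKO pools, against 84.8, 106.6, 109.6, 109.0 and 114.2 in control pools. Its log2 fold change was -0.31 (SE 0.078, limma adjusted p = 0.046). Every SCARKO pool was again below its own littermate control. The remaining probe set averaged 129.1 ± 8.41 in SCARKO and 135.3 ± 6.27 in control (SD, n = 5 each), with a log2 fold change of -0.07 and an interval from -0.22 to 0.08. The call of Insig2 was close to the threshold. It ended without pair 1, 3, 4 or 5 (adjusted p 0.12, 0.088, 0.12 and 0.16), and without the pairs as a block it was 0.088.

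Fdps encodes the enzyme that makes farnesyl diphosphate, the branch point to sterols, to prenyl groups on proteins and to other isoprenoids. Its signal was 476.6, 396.9, 398.7, 397.8 and 385.6 in SCARKO pools 1 to 5, against 301.5, 357.1, 328.8, 275.8 and 369.6 in control pools. All SCARKO pools were above all control pools, as in 2.47% of all genes. The SCARKO pool of pair 1 stood well above the other 4. The log2 fold change was 0.34 (SE 0.079, limma adjusted p = 0.032, higher in 5 of 5 pairs), a 1.26-fold higher signal. Without pair 1 it was 0.26 at an adjusted p of 0.099, and the call also ended without pair 3 (0.088) or 4 (0.10).

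Idi1 encodes the isomerase that supplies the starter unit for Fdps. Its brighter probe set had signals of 218.1, 246.3, 228.6, 226.1 and 268.2 in SCARKO pools 1 to 5, against 210.4, 224.8, 167.3, 188.8 and 203.6 in control pools. The lowest SCARKO pool was below the highest control pool, so the groups overlapped although every pair went the same way. The log2 fold change was 0.26 (SE 0.065, limma adjusted p = 0.044). Its other probe set gave a different reading, with 85.6, 136.8, 105.4, 114.7 and 123.2 in SCARKO pools and 86.6, 157.7, 101.8, 114.1 and 99.4 in control pools. That is a log2 fold change of 0.03, with an interval from -0.14 to 0.19. The call of Idi1 ended without pair 3, 4 or 5 (adjusted p 0.17, 0.10 and 0.16), and without the block it was 0.12.

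**Figure D2:**
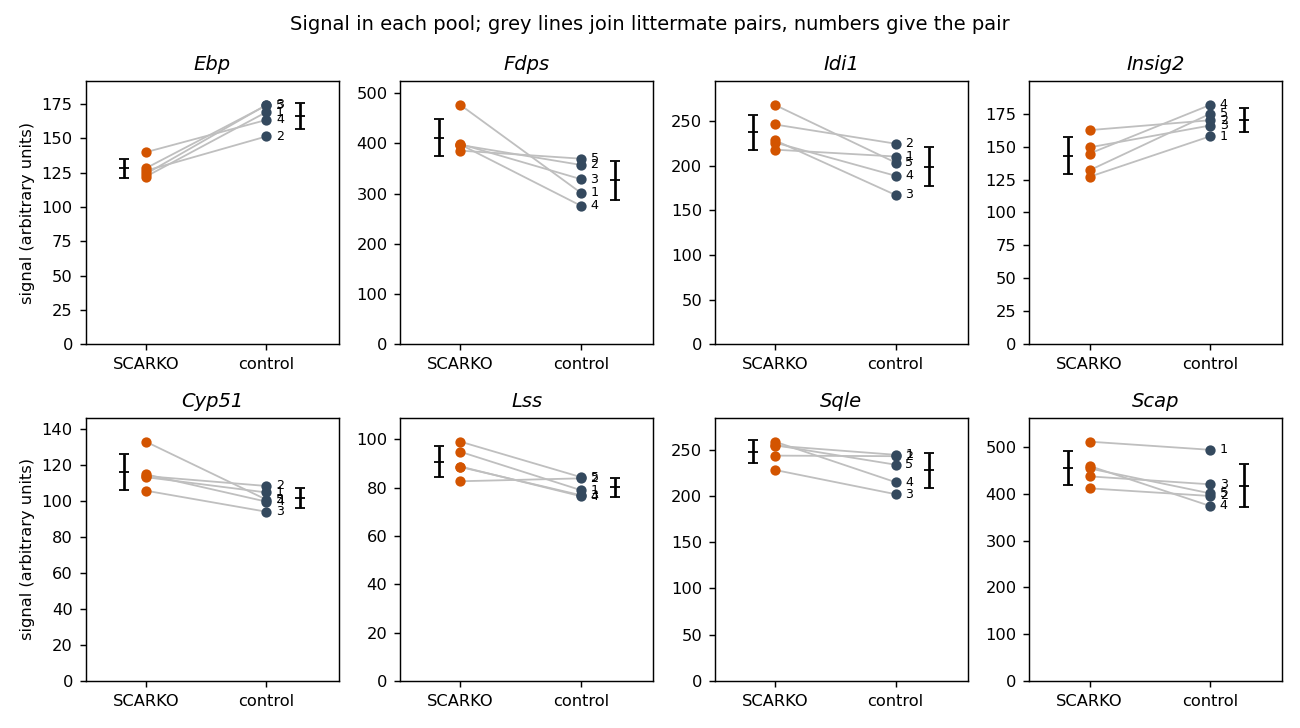
Signal of 8 genes in each pool, SCARKO left and control right, from 0 upwards. Points are pools, grey lines join littermate pairs, the numbers give the pair, and the bars are the mean and SD of 5 pools. The top row holds the 4 called genes, where all 5 lines slope the same way. The bottom row holds Cyp51, Lss, Sqle and Scap, 4 uncalled genes picked from those nearest the threshold (limma adjusted p 0.13, 0.17, 0.20 and 0.16). There the lines of Cyp51, Sqle and Scap also slope the same way in 5 of 5 pairs, and those of Lss in 4 of 5.

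Pair 5 is the pair whose genotype both labels agree on, and no processing tool was named for it. Its log2 ratios, SCARKO over control, were -0.44 for Ebp, -0.41 for Insig2, 0.40 for Idi1 and 0.06 for Fdps. The fit to the other 4 pairs had the same sign for each of these genes. They were called by a fit that included pair 5, so the shared sign is not an independent check.

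Promoter sequence is shown for the called genes that RefSeq promoter windows cover, and for Hmgcs1 and Cyp51, which represent an early step and the demethylation of lanosterol. Windows were the 250 bases before each annotated gene start in GRCm38.p6, and 23 of the 29 genes had one. They were searched on both strands for the sterol regulatory element TCACCCCAC and its shorter form CACCCCAC, which lies inside it, for the CCAAT box of the factor NF-Y, which acts with SREBP, for the GC box GGGCGG, and for the full palindrome of the androgen response element. Capitals mark the sterol element and the CCAAT box (ATTGG on the other strand). The windows are Ebp at chrX:8193513-8193762 on the minus strand, Idi1 at chr13:8885356-8885605 on the plus strand, the outermost of 3 Insig2 windows at chr1:121332590-121332839 on the minus strand, Cyp51 at chr5:4104698-4104947 on the minus strand and Hmgcs1 at chr13:119690101-119690350 on the plus strand.
Ebp: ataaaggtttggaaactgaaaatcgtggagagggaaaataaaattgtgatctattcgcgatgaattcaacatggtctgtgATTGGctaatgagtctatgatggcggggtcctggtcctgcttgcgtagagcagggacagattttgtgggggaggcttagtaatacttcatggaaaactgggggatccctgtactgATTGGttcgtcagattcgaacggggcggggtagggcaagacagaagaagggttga
Idi1: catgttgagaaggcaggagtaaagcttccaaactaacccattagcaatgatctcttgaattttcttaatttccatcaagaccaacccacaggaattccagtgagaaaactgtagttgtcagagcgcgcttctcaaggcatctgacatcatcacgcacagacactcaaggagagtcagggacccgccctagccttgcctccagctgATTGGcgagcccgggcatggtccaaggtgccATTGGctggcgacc
Insig2: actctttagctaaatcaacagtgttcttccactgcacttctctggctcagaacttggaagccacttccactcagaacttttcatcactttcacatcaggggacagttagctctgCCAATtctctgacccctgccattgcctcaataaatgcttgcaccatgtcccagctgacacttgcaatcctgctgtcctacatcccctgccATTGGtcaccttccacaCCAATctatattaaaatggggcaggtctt
Cyp51: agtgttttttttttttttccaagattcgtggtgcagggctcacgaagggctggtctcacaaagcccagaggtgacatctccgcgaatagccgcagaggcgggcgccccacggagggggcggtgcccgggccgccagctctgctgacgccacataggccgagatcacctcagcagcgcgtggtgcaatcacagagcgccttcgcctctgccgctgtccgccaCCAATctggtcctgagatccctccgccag
Hmgcs1: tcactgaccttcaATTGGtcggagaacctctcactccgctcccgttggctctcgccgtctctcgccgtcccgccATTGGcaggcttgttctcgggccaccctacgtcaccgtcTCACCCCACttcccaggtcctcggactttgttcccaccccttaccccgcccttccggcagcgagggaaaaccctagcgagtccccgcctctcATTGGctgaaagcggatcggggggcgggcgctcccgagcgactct

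A CCAAT box was found in 14 of the 15 synthesis genes with a window, all but Acat2, and in 6 of the 8 other genes, all but Abca1 and Scap. Of all 27025 genes with a window, tested on the arrays or not, 37.5% had one. The other shares of all genes in this paragraph use the same background. A gene counted if any of its windows matched. The other 2 Insig2 windows, not printed, held no CCAAT box and 1 GC box each, and the printed one, with 3 CCAAT boxes, was chosen after the matches were seen. Ebp and Idi1 each had 2, on the reverse strand, although Ebp fell and Idi1 rose. The GC box was found in 14 of 15 synthesis genes and 7 of 8 others, against 35.4% of all genes. The longer sterol element was found in Hmgcs1 alone among the members (0.555% of all genes) and the shorter one in Hmgcs1 and Acat2 (2.98%). Only exact matches to these spellings were counted. Sterol elements spelled otherwise were not searched for, so the other windows are not shown to lack one. The androgen palindrome was in none of the members' windows and in 0.0111% of all genes. A match describes letters in a window and is not evidence of binding.

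Among the mevalonate and isoprenoid steps, 2 of 6 measured genes rose, Idi1 and Fdps, and 4 were not called. Of all genes, 2.17% were called higher and 3.52% lower. Hmgcs1 encodes the cytosolic synthase that makes HMG-CoA, the precursor of mevalonate. Its brightest probe set had 899.1, 970.3, 894.6, 776.3 and 994.9 in SCARKO pools 1 to 5, against 930.3, 999.9, 884.2, 927.1 and 932.9 in control pools. The groups overlapped throughout, with a log2 fold change of -0.05 and an interval from -0.15 to 0.06. The other 3 probe sets of Hmgcs1 gave 0.08, -0.06 and 0.01, and none was called.

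The kinases that act on mevalonate next, Mvk and Pmvk, gave log2 fold changes of 0.18 and -0.14, with intervals from -0.05 to 0.40 and from -0.46 to 0.18. Mvk ran from 42.6 to 50.4 in SCARKO pools, with a median of 44.9, and from 32.2 to 46.5 in control pools, with a median of 40.2. Mvd, which removes a carboxyl group to give isopentenyl diphosphate, had 70.8, 67.9, 73.3, 73.4 and 96.7 in SCARKO pools, against 69.4, 64.6, 73.8, 59.5 and 68.9 in control pools. Its log2 fold change was 0.18 (limma adjusted p = 0.28), and the highest value belonged to the SCARKO pool of pair 5.

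Of the 11 genes of the squalene and sterol steps, 1 fell, Ebp, none rose and 10 were not called. Over all genes, 3.52% were called lower and 2.17% higher. The 10 that were not called include a run of consecutive enzymes, Fdft1, Sqle, Lss and Cyp51. By its brightest probe set, each had an unadjusted p under 0.05 with higher signal in SCARKO and did not pass after adjustment. Their adjusted p were 0.20, 0.20, 0.17 and 0.13. Over all roles, 9 of 26 genes had an unadjusted p under 0.05, beside 21.7% of all genes. By direction, 6 of 17 synthesis genes had an unadjusted p under 0.05 on the higher side, where 11.6% of all genes did, and 1 of 17 on the lower side, where 10.1% did.

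Cyp51 encodes the demethylase that acts on lanosterol and was the uncalled gene nearest the threshold. Its signal was 113.1, 113.7, 105.6, 114.7 and 132.8 in SCARKO pools 1 to 5, against 104.6, 108.2, 93.9, 99.5 and 100.6 in control pools. It was higher in SCARKO in 5 of 5 pairs, with overlap because the SCARKO pool of pair 3 lay below the control pool of pair 2. The log2 fold change was 0.19 (SE 0.067, limma adjusted p = 0.13). The other kept probe set of Cyp51, which was dimmer, was higher in only 3 of 5 pairs. It gave 0.25 with an interval from -0.007 to 0.51 (limma adjusted p = 0.25).

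Fdft1, squalene synthase, had 324.3, 340.8, 306.3, 305.2 and 375.7 in SCARKO pools, against 306.7, 328.1, 278.1, 289.4 and 331.8 in control pools. Its log2 fold change was 0.11, and its other kept probe set gave 0.21 (limma adjusted p 0.20 and 0.11, both higher in 5 of 5 pairs). Sqle, the epoxidase that adds oxygen to squalene, gave 0.13 with the same direction in 5 of 5 pairs, the pair 2 difference being close to 0. Lss, which closes the rings to lanosterol, gave 0.18 with 4 of 5 pairs higher. Its other kept probe set gave 0.14 with 3 of 5 pairs higher (limma, unadjusted p = 0.27). These are values and not calls.

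The remaining sterol enzymes lay near 0 with wider or narrower intervals. Tm7sf2, a sterol reductase, gave a log2 fold change of 0.06 with an interval from -0.23 to 0.36. Msmo1, the methyl oxidase, gave 0.07 (-0.06 to 0.20), Hsd17b7, a ketosteroid reductase, 0.08 (-0.20 to 0.36), Sc5d, a desaturase, 0.02 (-0.17 to 0.22) and Dhcr7, which reduces the last double bond of the ring, 0.06 (-0.07 to 0.19). Nsdhl, the decarboxylating dehydrogenase and the other X-linked member, had 136.4, 150.2, 131.6, 141.0 and 156.7 in SCARKO pools, against 171.1, 134.5, 137.6, 179.9 and 146.1 in control pools. It was lower in SCARKO in 3 of 5 pairs, with a log2 fold change of -0.10 and an interval from -0.28 to 0.08. The estimate for Ebp, -0.38, lies outside that interval, but the interval of Ebp, from -0.51 to -0.24, overlaps it.

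Among the regulators, 1 of 4 measured genes fell, Insig2, and 3 were not called, where 3.52% of all genes were called lower. Scap, the escort of SREBP, had 511.4, 411.6, 437.2, 459.4 and 454.1 in SCARKO pools, against 494.0, 395.3, 420.2, 373.9 and 400.9 in control pools. It was higher in SCARKO in 5 of 5 pairs, with a log2 fold change of 0.13 (SE 0.049, unadjusted p = 0.022, limma adjusted p = 0.16). Pools of the same number were close to each other, most of all in pairs 1, 2 and 3.

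Neither SREBP gene was called. Srebf2, the main driver of sterol synthesis, gave a log2 fold change of 0.06 with an interval from -0.09 to 0.22, and 0.11 by its other probe set. Srebf1, which acts more on fatty acid genes, gave -0.02 with an interval from -0.18 to 0.13. Srebf1 ran from 128.2 to 147.8 in SCARKO pools and from 122.1 to 173.0 in control pools.

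None of the 5 measured genes of transport, uptake and efflux was called, and none had an unadjusted p under 0.05. Their log2 fold changes ran from -0.06 to 0.17. Abca1, which exports cholesterol to lipid-poor apolipoprotein, had 727.6, 712.8, 764.8, 759.4 and 730.1 in SCARKO pools, against 663.4, 734.5, 702.1, 788.9 and 740.6 in control pools. Its interval from -0.07 to 0.12 was narrow, and its other 2 probe sets gave -0.01 and 0.04.

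Abcg1, the exporter to mature lipoprotein, had 59.9, 69.0, 66.8, 65.5 and 68.6 in SCARKO pools, against 62.6, 51.1, 47.0, 59.9 and 77.4 in control pools. It was higher in SCARKO in 3 of 5 pairs, with a log2 fold change of 0.17 and an interval from -0.07 to 0.40. Scarb1, the receptor through which cells take up cholesterol from high-density lipoprotein, had 348.8, 315.0, 337.8, 344.6 and 282.3 in SCARKO pools, against 376.1, 288.6, 383.2, 318.2 and 338.4 in control pools. Its log2 fold change was -0.06, with an interval from -0.20 to 0.08, and its other 2 probe sets gave -0.13 and -0.08.

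Npc1 and Npc2, the pair of proteins that release cholesterol from lysosomes, gave log2 fold changes of 0.05 (interval -0.15 to 0.24) and -0.04 (-0.12 to 0.05). The second probe set of Npc2 was lower in SCARKO in 5 of 5 pairs by a small amount, -0.08 (unadjusted p = 0.064, limma adjusted p = 0.27). By the brightest probe set of each of the 5 genes, the intervals lay between -0.20 and 0.40 on the log2 scale.

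**Figure D3:**
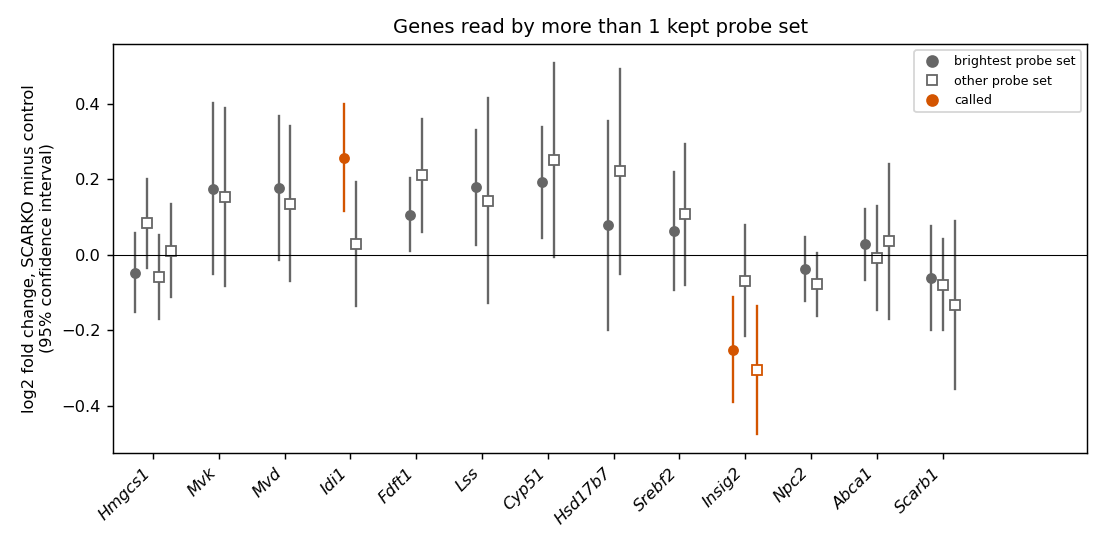
Log2 fold change, SCARKO minus control, of every kept probe set of the 13 genes read by more than 1. Circles are the brightest probe set, squares the others, lines are 95% confidence intervals, and orange marks called probe sets. The probe sets of 2 genes, Abca1 and Hmgcs1, had both signs, all close to 0, and the 2 of Idi1 differ in size.

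Set side by side, 13 of 17 synthesis genes (76.5%) and 5 of 9 regulator and transport genes (55.6%) had a positive log2 fold change, beside 55.0% of all genes. Median log2 fold changes were 0.078 for synthesis, 0.019 for regulators and 0.028 for transport and efflux, beside 0.015 over all genes. These are counts and medians without a test. Genes of a pathway can vary together, so they do not count as independent readings of the groups. Without pair 3 the count of positive synthesis genes was 10 of 17, and it lay between 10 and 14 when any 1 pair was left out.

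The littermate pairs differed in how far synthesis genes were apart. The median log2 ratio of the 17 genes, SCARKO over control, was 0.057, 0.0036, 0.18, 0.16 and 0.10 in pairs 1 to 5. In those pairs 11, 9, 14, 11 and 12 of the 17 were higher in SCARKO, beside 51.3%, 52.1%, 51.9%, 55.6% and 53.1% of all genes. Pair 2 thus showed about as many genes higher as lower, and pairs 3 and 4 had the widest gap. Over the 9 regulator and transport genes the median log2 ratio was -0.064, 0.058, -0.025, 0.03 and -0.021, with no common sign.

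**Figure D4:**
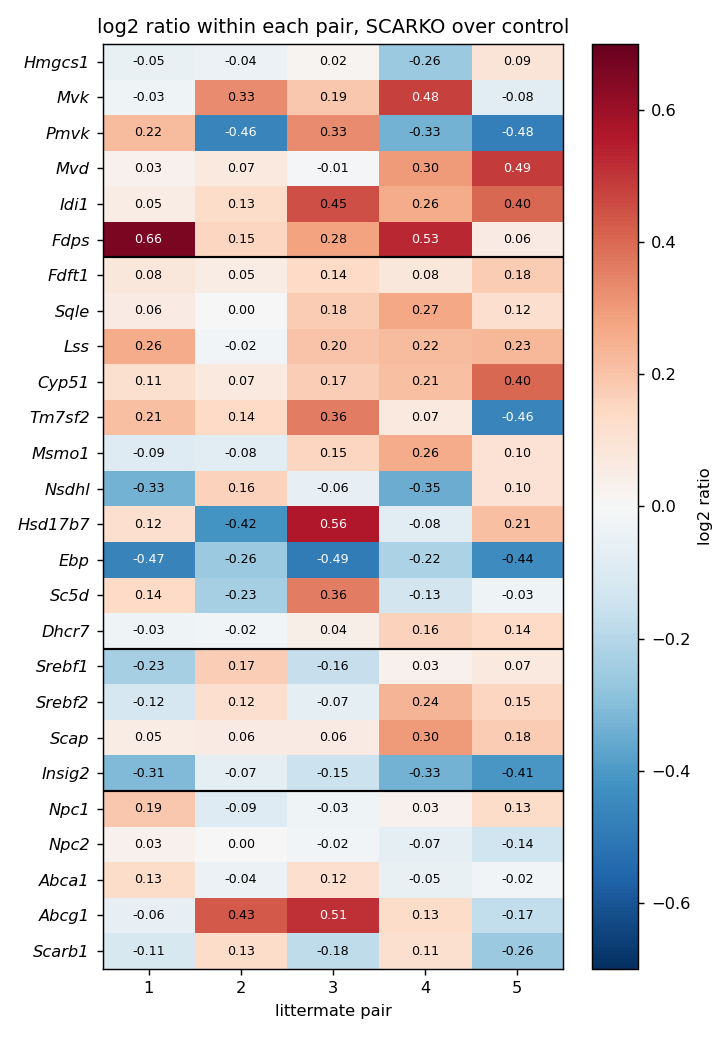
Log2 ratio, SCARKO over control, of each of the 26 genes within each of the 5 littermate pairs. Red is higher and blue lower in SCARKO, and black lines divide the 4 roles in pathway order. Ebp and Insig2 are blue and Idi1, Fdps, Fdft1 and Cyp51 are red in all 5 pairs, while the ratios of transport and efflux genes change sign between pairs.

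Of the 26 genes, 8 had the same sign in all 5 pairs. Higher in SCARKO in each pair were Idi1, Fdps, Fdft1, Sqle, Cyp51 and Scap, 6 of 26, where 11.0% of all genes were. Lower in each pair were Ebp and Insig2, 2 of 26, where 8.78% of all genes were.

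The pools themselves also differed within a group. Each gene was set against its own mean over the 10 pools, and the median deviation of the 17 synthesis genes was taken per pool on the log2 scale. It was 0.03, 0.039, -0.0023, 0.042 and 0.15 in SCARKO pools 1 to 5, against -0.041, 0.035, -0.15, -0.13 and 0.019 in control pools 1 to 5. Within each of the 5 littermate pairs the SCARKO pool was above its control, by little in pair 2. Across pairs the groups overlapped, since SCARKO pool 3 lay below control pools 2 and 5.

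Single pools stood out. The SCARKO pool of pair 5 was the highest of all 10 pools for 7 of the 17 synthesis genes (41.2%), where it was the highest for 13.3% of all genes. The control pool of pair 3 was the lowest for 7 of 17, where it was the lowest for 14.7% of all genes, and the control pool of pair 4 was the lowest for 5 of 17, where it was the lowest for 9.12% of all genes. The 9 regulator and transport genes had median deviations between -0.13 and 0.072.

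**Figure D5:**
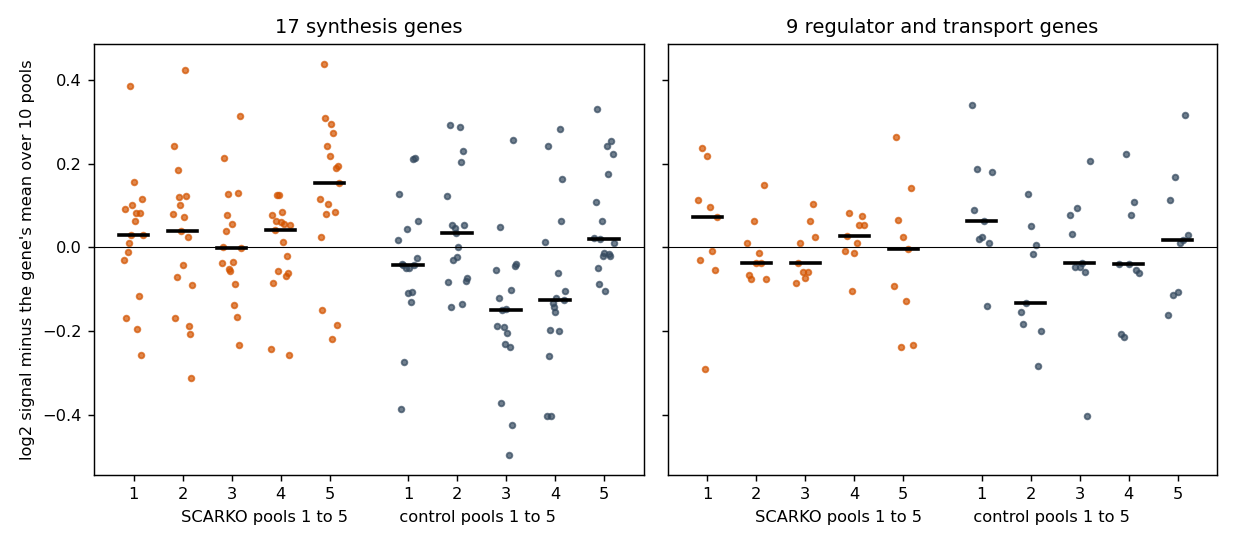
Log2 signal of each gene minus its mean over the 10 pools, for 17 synthesis genes on the left and 9 regulator and transport genes on the right. Each point is a gene, black bars are medians, SCARKO pools are orange and control pools dark. The synthesis median is highest in SCARKO pool 5 (0.15) and lowest in control pools 3 and 4 (-0.15 and -0.13).

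A list of 27 further related genes held genes of sterol and lipoprotein handling, the NF-Y genes and Sp1. Of these, 18 had a single-gene probe set bright enough to test. The others had only dim probe sets or no single-gene probe set. Lpl, which encodes lipoprotein lipase, rose, and 17 were not called. That is 5.56% called, close to the 5.69% of all genes. Its signal was 263.2, 256.7, 243.0, 223.5 and 260.7 in SCARKO pools, against 194.3, 206.3, 139.3, 156.2 and 184.7 in control pools, with every SCARKO pool above every control pool, as in 2.47% of all genes. The log2 fold change was 0.51 (SE 0.067, limma adjusted p = 0.0020), larger than that of any cholesterol gene called here. The 18 genes had a median log2 fold change of 0.065, beside 0.015 over all genes.

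Of 10 Sertoli cell markers tested, Cldn11 and Gata1 were lower and Kitl and Fshr higher in SCARKO, 4 of 10 beside 5.69% of all genes. At an unadjusted p under 0.05 there were 5 of 10, 3 lower and 2 higher, beside 21.7% of all genes. The third on the lower side was Amh, with a log2 fold change of -0.71, lower in 5 of 5 pairs (limma adjusted p = 0.065). The summed signal of the 10 markers ran from 4875 to 5076 in SCARKO pools and from 4938 to 5332 in control pools. Much of that sum is Clu alone, which averaged 2498 in SCARKO and 2580 in control pools. Of 9 germ cell markers, Stag3 and Hspa2 were lower, where 3.52% of all genes were. At an unadjusted p under 0.05, 4 were lower and 1 higher, where 10.1% and 11.6% of all genes were. Germ cell sums ran from 3378 to 3970 in SCARKO pools and from 3240 to 4318 in control pools. Limma called 0 of 5 Leydig cell markers, 2 with a positive and 3 with a negative log2 fold change. Hsd17b3, at 0.50, was the 1 with an unadjusted p under 0.05 (limma adjusted p = 0.11). Leydig sums ran from 894.8 to 1266 in SCARKO pools and from 863.6 to 1160 in control pools. Single markers varied more, as Cyp17a1 had a log2 ratio of 1.74 in pair 3 and -1.74 in pair 5. Its interval ran from -0.78 to 0.68, so the lack of a call does not show equal Leydig cell signal. Limma also called 0 of 7 macrophage, 0 of 6 myoid and 0 of 6 endothelial markers, with 1 at an unadjusted p under 0.05 in each list. These counts use the brightest probe set of each gene. Dimmer probe sets of the myoid marker Mylk and the Sertoli marker Clu were called lower. Their log2 fold changes were -0.22 and -0.11 (limma adjusted p 0.039 and 0.048). The part of these cell types in the differences above was not tested.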

How the data were processed

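The authors deposited 1 linear Affymetrix intensity for each of 22690 probe sets on each array. MAS5 is named for 8 of 10 arrays and no tool for pair 5, per the submitters' processing notes, with no version in the sources used here. Arrays have no read depth, so precision is set by having 5 arrays in each group.

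Groups and pair numbers came from the titles. Probe sets were named from the platform annotation, updated by gene identifier to GRCm38.p6 symbols. Signals under 1 were set to 1, log2 was taken, and the dimmest 40% of probe sets (mean log2 signal under 4.27) were dropped, which kept 13576. Each was fitted with limma 3.58.1 (R 4.3.3), pair as a block, an intensity trend and a two-sided test, and called at an adjusted p under 0.05 (Benjamini-Hochberg). Log2 fold changes are SCARKO minus control. The brightest kept probe set stood for a gene, and calls use the adjustment over all probe sets. The fit was tested on simulated data.

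The protocol in the labels pairs littermates. Pools of the same number deviated together from their group means (correlation across probe sets 0.27, 0.19, 0.19, 0.11 and 0.39 for pairs 1 to 5). By rule every member was named, with signals per pool for called genes, genes whose probe sets disagree in sign and the genes nearest the threshold. Of the further related genes, those called were named. Per-pool signals of other members were chosen after their values were seen. The members and lists were chosen with earlier results of these data known.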

Additional observations from a re-analysis of the deposited data

Results flagged for a closer look

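In 5 of 52 sets of 5 pools (26 genes in 2 groups), the highest or lowest pool stood apart from the other 4, by a gap of more than 0.71 of the whole range on the log2 scale. Chance does this in about 1 of 20 sets. Fdps was 476.6 in the SCARKO pool of pair 1, against 385.6 to 398.7 in the other SCARKO pools. The SCARKO pool of pair 5 stood apart for Mvd, at 96.7 against 67.9 to 73.4, and for Srebf2, at 122.0 against 97.1 to 103.6. Pmvk was 30.5 in the SCARKO pool of pair 3, against 23.4 to 24.8 in the other SCARKO pools. Sc5d was 97.5 in the control pool of pair 5, against 76.5 to 82.0 in the other control pools.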

How the results depend on the processing

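With groups from the titles, Ebp kept its call in 10 of 11 alternatives and lost it without the filter on dim probe sets (adjusted p 0.073). The calls of Fdps, Idi1 and Insig2 ended in 5, 6 and 8 of the 11, with no change of sign, and the cause was not tested. The 4 called members became 2 without the replicate block, 1 without the intensity trend and 0 without the filter, where 9 still had an unadjusted p under 0.05. Of the 3 synthesis calls, 1 was left without the trend and 0 without the filter. The 1 call among regulators and transport genes became 0 without the block, the filter or the trend, and after quantile normalization, with 1, 2, 1 and 2 at an unadjusted p under 0.05. The 704 probe sets called became 404 without the block, 38 without the filter and 321 without the trend. With groups from the descriptions 0 probe sets were called, and 0 members, 0 synthesis genes and 0 regulator and transport genes, with 2, 1 and 1 of these genes at an unadjusted p under 0.05. Leaving out 1 pair gave 1 to 4 members, 1 to 3 synthesis genes, 0 to 1 regulator or transport genes and 304 to 744 probe sets. Without pair 3 or 4, Ebp was the 1 member called. With 1 pair left out, log2 fold changes near 0 changed sign for Hmgcs1 (-0.083 to 0.004), Tm7sf2 (-0.010 to 0.196), Hsd17b7 (-0.042 to 0.202), Sc5d (-0.063 to 0.085) and Srebf1 (-0.072 to 0.026). The count of 13 positive synthesis genes, added after the data were seen, ran from 10 to 14 when 1 pair was left out. With 16 added before log2 the 4 calls kept their side of the threshold.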
